A study of Mus musculus with 6 samples.

Results

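Potassium channel genes were examined in RNA-seq of mouse striatum, the part of the basal ganglia that receives cortical input. The members were the protein-coding genes of GENCODE release M21 whose symbol is Kcn followed by a letter and a number, without Kcnj8, Kcnj13 and Kcne2. All 78 such genes were present among the 55335 gene identifiers of the count files. They fell into 30 voltage-gated pore-forming genes, 10 modifier subunits of voltage-gated channels, 13 inward rectifiers, 14 two-pore genes, 7 calcium-activated and Slo family genes, and 4 Kcne accessory subunits. The libraries were 3 from control C57 mice labelled wild type (NC) and 3 of C57 mice labelled as overexpressing PDE5A (OE), a phosphodiesterase that breaks down cyclic GMP. The route of overexpression, the promoter behind it, what the control animals received, and the age and sex of the animals were not stated in the labels used. Pde5a stood at 3.72, 4.14 and 6.09 CPM (read counts scaled to a common library size) for control replicates 1, 2 and 3. The same gene measured 760, 700 and 592 CPM for overexpression replicates 1, 2 and 3.

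Potassium channels let potassium ions leave or enter the cell along their gradient and so set the resting potential, shorten action potentials and space them in time. Voltage-gated members open on depolarisation, inward rectifiers pass current best near rest, two-pore channels give a standing leak, and calcium- or sodium-activated members open after spiking. Medium spiny neurons, which make up most striatal neurons, are known for a very negative resting potential held by inward rectifiers and for A-type and M-type currents that delay and limit firing.

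The ion passage is lined by a short selectivity filter, and its coding sequence shows how the classes are built. A filter was searched for in the translated longest coding sequence of each gene as threonine or serine, any residue, glycine, then tyrosine, phenylalanine or leucine, then glycine. All 14 two-pore genes held 2 matches, 1 for each pore loop. All 13 inward rectifiers, all 10 modifier subunits, all 7 calcium-activated and Slo genes and 28 of the 30 voltage-gated genes held 1 match. Kcna6 and Kcnh2 held 2, and the 4 Kcne genes, whose products attach to channels and form no pore, held 0. At least 1 match occurred in 5.38% of 21767 protein-coding genes and exactly 2 in 0.427%, so the pattern is short enough to occur elsewhere by its letters alone. Below are 33 coding bases for genes of the pore-forming classes, with the 5 filter codons in capitals, from GENCODE M21 transcripts of the GRCm38 (mm10) assembly, 5′ to 3′ on the strand of the gene.
Kcna2, voltage-gated: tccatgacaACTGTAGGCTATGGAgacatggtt
Kcnj10, inward rectifier: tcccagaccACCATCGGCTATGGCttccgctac
Kcnk1, two-pore, first filter: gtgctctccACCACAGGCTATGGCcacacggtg
Kcnk1, two-pore, second filter: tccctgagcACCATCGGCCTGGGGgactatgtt
Kcnk2, two-pore, first filter: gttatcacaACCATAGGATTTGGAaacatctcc
Kcnk2, two-pore, second filter: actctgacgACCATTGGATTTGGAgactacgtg
Kcnt1, sodium-activated: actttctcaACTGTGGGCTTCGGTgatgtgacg
The stretches lie in coding exons. That of Kcna2 is at chr3:107105215-107105247 and that of Kcnj10 at chr1:172369293-172369325, both on the plus strand. The second filters are at chr8:126025320-126025352 (plus) for Kcnk1 and chr1:189256572-189256604 (minus) for Kcnk2, while the first filter stretch of each is split by an intron. Kcnt1 has it at chr2:25894358-25894390 on the plus strand.

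Libraries held 33013698 to 42288789 counts, and the 3 overexpression libraries were shallower than the 3 control libraries. All 14 medium spiny neuron markers were detected in every library, among them Ppp1r1b at 991 to 1907 CPM and Drd1 at 120 to 251 CPM. Markers of cortical glutamatergic neurons were also present, with 12 of 12 detected and a mean log2 CPM of 5.17, 3.42 and 5.72 for control replicates 1, 2 and 3 against 4.55, 5.10 and 6.18 for the overexpression replicates. Choroid plexus markers, 10 of 10 detected, stood at 1.15, 0.78 and 0.65 in control and at 2.76, 4.87 and 0.44 in overexpression, so that overexpression replicates 1 and 2 stood apart. These are bulk samples, in which fewer cells of a type and less RNA per cell cannot be told apart.

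No potassium channel gene changed between the groups by the test used. Of the 78 members, 67 had enough counts to be tested, and 0 passed an adjusted p of 0.05 (Benjamini-Hochberg, from the quasi-likelihood F-test of edgeR), where 0.00505% of the 19809 genes tested did. An unadjusted p under 0.05 was reached by 0 members, beside 3.89% of all genes tested (2.25% higher and 1.64% lower in overexpression), and the lowest unadjusted p of a member was 0.0827. The DESeq2 Wald test called 0 members at an adjusted p of 0.05, beside 0.419% of all genes, and 0 at an unadjusted p under 0.05, beside 3.55%. Log2 fold changes of overexpression over control were above 0 for 37 members and below 0 for 30, a share of 55.2% positive beside 50.6% of all genes. Their median was 0.02, beside 0.002 over all genes tested.

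A missed threshold does not show that levels were alike, and the intervals say how large a difference remains possible. The 95% interval of the log2 fold change lay within −1 and 1, for 51 of the 67 members, or 76.1%, beside 76.6% of all genes tested. It lay within −0.5 and 0.5 for 23 members. Narrow intervals were those of Kcnk1, from −0.10 to 0.22, and Kcna2, from −0.21 to 0.22. The widest was Kcng4, from −2.68 to 0.88.

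**Figure D1:**
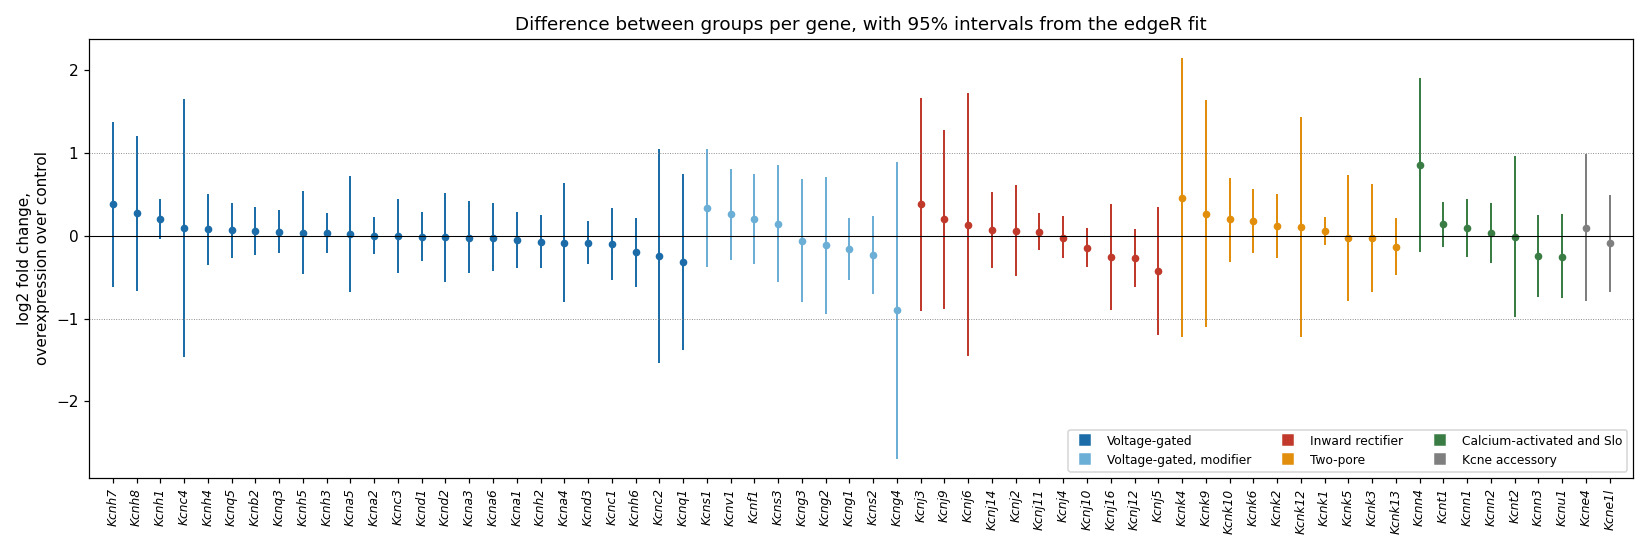
Log2 fold change of overexpression over control (vertical axis) for 64 of the 67 tested members, ordered within class, with points for the edgeR estimate and lines for its 95% interval. Every interval crosses 0, and the dotted lines mark −1 and 1.

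The groups failed to overlap for 1 of the 67 members, or 1.49%, beside 8.93% of all genes tested (4.81% with overexpression higher and 4.11% with it lower). This was Kcnn4, the intermediate-conductance calcium-activated channel known from red blood cells and immune cells. Its levels were 0.215, 0.561 and 0.223 CPM in controls against 0.633, 0.572 and 0.614 CPM with overexpression. The gap rests on a low gene: its counts were 9, 23 and 9 in control and 25, 19 and 23 in overexpression. The log2 fold change was 0.86 (SE 0.45) with an unadjusted p of 0.0930 and an interval from −0.18 to 1.90. Without control replicate 1 it was 0.63 (SE 0.49), and without control replicate 3 it was 0.65 (SE 0.50). Leaving out control replicate 2, the highest control library with 23 counts, widens the gap by construction. The log2 fold change was then 1.46 (SE 0.43) with an unadjusted p of 0.0115. The unadjusted p was also under 0.05 with limma-voom, at 0.0461, and with the cortical marker level as a covariate, at 0.0280, while the adjusted p was at least 0.871 in all 3.

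Each class was also summed over its members. Levels summed across genes were first divided by exon length, as CPM per kilobase. All members together came to 604, 626 and 614 CPM per kilobase in control and 611, 606 and 653 in overexpression. Voltage-gated genes took 44.5% to 47.5% of this, inward rectifiers 25.5% to 26.9%, two-pore genes 12.6% to 14.3% and modifier subunits 7.28% to 9.34%. Calcium-activated and Slo genes took 5.36% to 6.11% and Kcne genes 0.499% to 0.874%. The symbol rule leaves out Kcnma1, a calcium-activated Slo pore gene at a mean of 12.9 CPM per kilobase. These shares therefore do not count it.

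The two-pore sum was the one class sum whose groups did not overlap, at 80.3, 79.0 and 81.5 CPM per kilobase in control and 82.7, 86.6 and 86.8 in overexpression. The groups also stayed apart when CPM was computed from total counts, at 80.6, 76.6 and 81.0 against 83.1, 87.2 and 88.1. As a share of all members, two-pore genes took 13.3%, 12.6% and 13.3% in control against 13.5%, 14.3% and 13.3% in overexpression. To these digits the shares of the groups were not apart, and the total of all members was highest in overexpression replicate 3, at 653. Among single genes, 8.93% of all tested had groups that did not overlap. No such share was made for sums over several genes, so that value is no background for the two-pore sum. The two-pore sum carries no test, and each of the 10 tested two-pore genes had groups that overlapped.

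**Figure D2:**
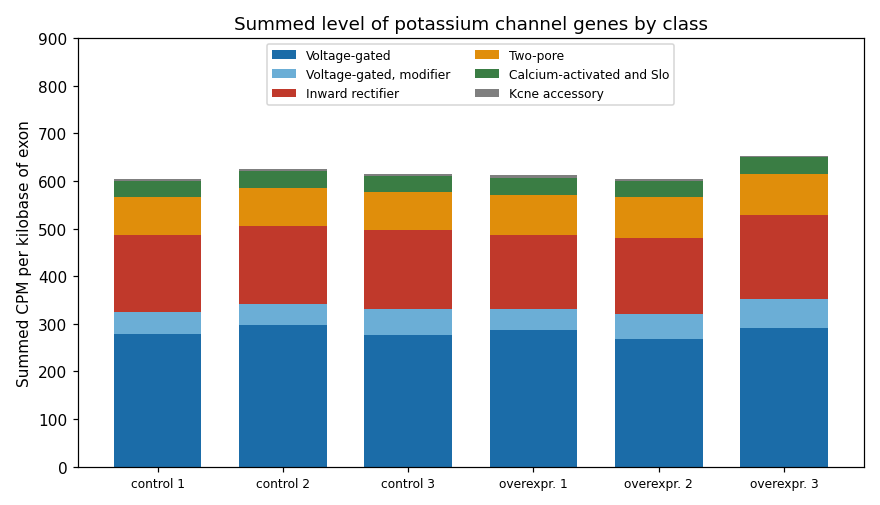
Summed CPM per kilobase of exon (vertical axis) of the 78 members in each library, stacked by class. The bars end between 604 and 653, and the voltage-gated class is the largest part of each.

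Among voltage-gated genes, 0 of the 28 tested passed, with 15 log2 fold changes above 0, 13 below and a median of 0.00. Kcnd2, which encodes a pore subunit of the A-type current in dendrites, had the highest level per length of the class, at a mean of 32.3 CPM per kilobase and a range of 24.5 to 39.8 over the libraries.

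Kcnd2 measured 165, 205 and 131 CPM in controls against 199, 171 and 126 CPM with overexpression. The groups overlapped over nearly their whole range, and the log2 fold change was −0.01 (SE 0.22). Kcnq3, a subunit of the M-type current that restrains repetitive firing, stood at 234 to 277 CPM in control and 242 to 303 CPM in overexpression.

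Kcnh1, of the ether-à-go-go family, had the smallest p of all members. It measured 55.4, 61.9 and 64.9 CPM in controls against 63.8, 66.6 and 79.4 CPM with overexpression. The lowest overexpression library lay below the highest control library, and the log2 fold change was 0.20 (SE 0.10) with an unadjusted p of 0.0827. The unadjusted p of edgeR was 0.0233 with a block for the replicate number. It was 0.0448 without overexpression replicate 1, the lowest overexpression library, whose removal widens the gap by construction. The adjusted p was at least 0.916 in both.

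Kcnc4, of the Kv3 family that supports fast spiking, varied most among the voltage-gated genes with a mean of at least 1 CPM. It measured 27.2, 10.8 and 40.4 CPM in controls against 14, 26.4 and 43.4 CPM with overexpression. The spread within each group was thus many times the difference between group means of 26.1 and 28.0 CPM, with a log2 fold change of 0.10 (SE 0.61). Kcna2, a Kv1 subunit of axons, was steadier, at 207 to 224 CPM in control and 195 to 242 CPM in overexpression. Kcna7 was listed at 0 in every library, and Kcna10 had at most 0.171 CPM and was not tested.

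Modifier subunits form no channel alone and alter Kv2 channels when they join them. Of 10, 9 were tested and 0 passed, with 4 log2 fold changes above 0, 5 below and a median of −0.06. Kcnf1, at a mean of 15.4 CPM per kilobase, and Kcnv1, at 14.8, led the class, followed by Kcns2 at 7.83. The ranges of the first pair, 11.8 to 20.0 and 9.95 to 20.0, did not separate.

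Kcnf1 measured 61.9, 60.7 and 83.1 CPM in controls against 56.5, 84.6 and 95.9 CPM with overexpression. Kcnv1 measured 64.5, 45.6 and 75.7 CPM in controls against 61.9, 68.8 and 91.6 CPM with overexpression. In both genes overexpression replicate 3 was the highest library, and the groups overlapped, with log2 fold changes of 0.20 (SE 0.22) and 0.26 (SE 0.22). Kcns2 ran the other way, at 41.8, 59.5 and 40.3 CPM in controls against 46.2, 42.4 and 32.2 CPM with overexpression, with its highest level in control replicate 2 and a log2 fold change of −0.23 (SE 0.19).

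Kcng4 had the widest spread of any member with a mean of at least 1 CPM. It measured 6.89, 5.41 and 4.6 CPM in controls against 2.33, 0.602 and 6.09 CPM with overexpression. The low values came from overexpression replicates 1 and 2, with 92 and 20 counts beside 228 in overexpression replicate 3, the same libraries in which choroid plexus markers were high. The part of that tissue content in the Kcng4 level was not tested. The log2 fold change was −0.90 (SE 0.72) with an unadjusted p of 0.260, and it was 0.11 without overexpression replicates 1 and 2 and −1.92 without overexpression replicate 3.

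Inward rectifiers had 11 tested genes and 0 that passed, with 6 log2 fold changes above 0, 5 below and a median of 0.05. Kcnj4, one of the strong rectifiers that hold the resting potential, had the highest level per length of all members, at a mean of 69.9 CPM per kilobase and a range of 62.6 to 80.0, above every library of every other member. It made up 42.7% of its class. It measured 137, 172 and 144 CPM in controls against 156, 157 and 135 CPM with overexpression. The overexpression libraries lay inside or just below the control range, with a log2 fold change of −0.02 (SE 0.11) and an interval from −0.26 to 0.23.

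Kcnj10, the glial rectifier by which astrocytes take up potassium, came second in the class at 36.5 CPM per kilobase. It measured 229, 206 and 186 CPM in controls against 199, 174 and 190 CPM with overexpression. The groups overlapped and the log2 fold change was −0.14 (SE 0.09), while the mean log2 CPM of 10 astrocyte markers ran from 7.73 to 7.86 in control and from 7.58 to 7.71 in overexpression. Whether astrocyte content had a part in the Kcnj10 values was not tested. Kcnj12, another strong rectifier, had the smallest p of the class, at 11, 11.1 and 8.12 CPM in controls against 8.89, 7.88 and 8.22 CPM with overexpression, with an unadjusted p of 0.105.

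Kcnj9, Kcnj6, Kcnj3 and Kcnj5 encode G protein-gated rectifiers, through which many transmitter receptors slow firing. Kcnj9 measured 69.2, 47.0 and 93.3 CPM in controls against 49.1, 66.5 and 125 CPM with overexpression. Kcnj6 measured 6.04, 2.44 and 8.78 CPM in controls against 3.27, 4.24 and 11.4 CPM with overexpression. Kcnj3 measured 56.2, 29.4 and 75.4 CPM in controls against 39.5, 59.9 and 111 CPM with overexpression.

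Kcnj9, Kcnj6 and Kcnj3 were each lowest in control replicate 2 and highest in overexpression replicate 3. Their log2 fold changes of 0.20 (SE 0.43), 0.13 (SE 0.64) and 0.38 (SE 0.51) were smaller than their errors. Kcnj5 was lower, at 0.926 to 2.08 CPM, and was not highest in overexpression replicate 3. Kcnj11, the pore of ATP-sensitive channels, was steady, at 32.6 to 37.7 CPM in control and 34.4 to 40.1 CPM in overexpression. Kcnj1 was listed at 0 in every library, and Kcnj15 had counts in overexpression replicates 1 and 2 alone, at 0.0760 and 0.150 CPM. Neither was tested.

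Two-pore genes had 10 tested members and 0 that passed, with 7 log2 fold changes above 0, 3 below and a median of 0.11. Kcnk1, whose paired filters are printed above, led with a mean of 38.1 CPM per kilobase, 46.1% of the class, and had the smallest ratio of highest to lowest library of the members at a mean of at least 1 CPM. It measured 86, 82.2 and 82.4 CPM in controls against 83.0, 93.2 and 84.8 CPM with overexpression. The highest library was 1.13 times the lowest, and the log2 fold change was 0.06 (SE 0.07).

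Kcnk2, a channel opened by stretch and lipids, followed at 25 CPM per kilobase, with a range of 20.9 to 30.4 that lay below the Kcnk1 range of 36.8 to 41.7. It measured 107, 140 and 108 CPM in controls against 150, 132 and 103 CPM with overexpression, and the groups overlapped. Kcnk9, an acid-sensitive leak channel, measured 74.6, 34.6 and 106 CPM in controls against 52.0, 72.2 and 135 CPM with overexpression. The highest library was 3.91 times the lowest, beside a log2 fold change of 0.27 (SE 0.54).

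Kcnk4, a mechanically gated relative of Kcnk2, was the most variable two-pore gene with a mean of at least 1 CPM, at 5.42, 2.49 and 7.47 CPM in controls against 3.39, 3.97 and 13.8 CPM with overexpression. The highest library was 5.56 times the lowest. It shares 587 exon bases with Catsperz on the same strand, so its counts are uncertain. Kcnk6 had the smallest p of the class, 0.283 unadjusted, at 3.70, 4.49 and 4.97 CPM in controls against 4.89, 5.02 and 5.04 CPM with overexpression. Kcnk16 was listed at 0 throughout, and Kcnk7, Kcnk15 and Kcnk18 had at most 0.297 CPM and were not tested.

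Of the 7 calcium-activated and Slo genes all were tested and 0 passed, with 4 log2 fold changes above 0, 3 below and a median of 0.04. Kcnt1, a sodium-activated channel that follows bursts of spikes, made up 61.3% of these 7 genes at a mean of 21.2 CPM per kilobase. The share leaves out Kcnma1, at a mean of 12.9 CPM per kilobase, whose symbol lies outside the rule. Kcnt1 measured 173, 220 and 181 CPM in controls against 234, 202 and 198 CPM with overexpression. The groups overlapped, with a log2 fold change of 0.14 (SE 0.11). Kcnn3, a small-conductance calcium-activated channel, measured 50.6, 58.2 and 43.7 CPM in controls against 54.0, 43.6 and 31.8 CPM with overexpression. Overexpression replicate 3 was its lowest library and the log2 fold change was −0.24 (SE 0.20).

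Kcnt2, the relative of Kcnt1, measured 24.6, 13.3 and 26.6 CPM in controls against 14.5, 17.7 and 32.1 CPM with overexpression, with group means of 21.5 and 21.4 CPM. Kcnn1 and Kcnn2, the other small-conductance genes, stood at 8.77 to 12.5 and 16.7 to 23.4 CPM over the 6 libraries. Kcnu1, a channel best known from sperm, was detected at 2.08 to 3.37 CPM.

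Kcne1l and Kcne4 were the 2 tested genes of the 4 Kcne genes, and 0 passed. Kcne1l measured 7.59, 7.02 and 4.50 CPM in controls against 7.14, 6.35 and 4.48 CPM with overexpression. Kcne4 measured 0.644, 0.561 and 1.21 CPM in controls against 0.633, 1.02 and 0.934 CPM with overexpression. In each gene the groups overlapped. Kcne1 was listed at 0, and Kcne3, at 0.101 to 0.215 CPM in 4 libraries and 0 in overexpression replicates 2 and 3, was not tested.

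**Figure D3:**
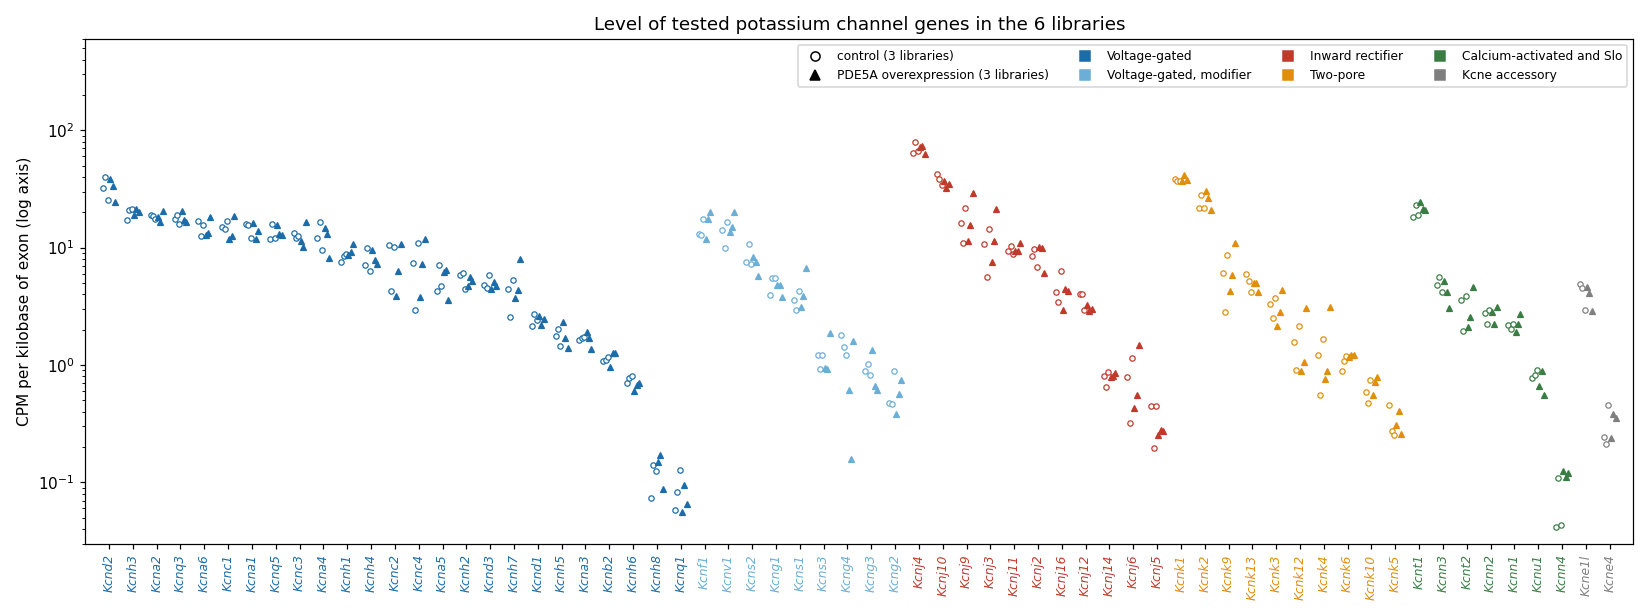
Level per length (vertical log axis, CPM per kilobase of exon) of 64 of the 67 tested members by class, with open circles for the 3 control and filled triangles for the 3 overexpression libraries. Kcnj4 lies highest, at 62.6 to 80.0, and the symbols of the groups overlap for 63 of those shown, all but Kcnn4.

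Libraries of the same group differed in many members, and the differences took opposite courses in different genes. Cortical markers rose from control replicate 2 through 1 to 3 and from overexpression replicate 1 through 2 to 3. Of the 63 members with a mean of at least 1 CPM, 19 were ordered the same way in both groups, or 30.2%, beside 10.2% of the 16043 tested genes at that level. The exact reverse order in both groups was found for 9 members, or 14.3%, beside 9.44% of those genes. This ordering was chosen after the values were seen and carries no test.

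Members in the cortical order included the voltage-gated Kcnc1, Kcnc4 and Kcnh7, the modifiers Kcnf1, Kcng2, Kcns1 and Kcnv1, the rectifiers Kcnj3, Kcnj6, Kcnj9 and Kcnj14, the two-pore genes Kcnk3, Kcnk4, Kcnk9, Kcnk10 and Kcnk12, and Kcnn1 and Kcnt2. The G protein-gated rectifiers Kcnj3, Kcnj6 and Kcnj9, though not Kcnj5, and the acid-sensitive pair Kcnk3 and Kcnk9 were thus all in this set. Within it the highest library exceeded the lowest by 1.35 times (Kcnj14) to 5.56 times (Kcnk4). Some orders rest on small differences. Kcnj14 measured 2.17, 1.76 and 2.38 CPM in controls against 2.13, 2.20 and 2.30 CPM with overexpression, from 72 to 96 counts a library. Whether counting error alone could give such an order was not tested.

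The reverse order was shown by Kcna4, Kcnd2, Kcng3, Kcnh4, Kcnh5, Kcnj2, Kcnn3, Kcnq3 and Kcns2, with highest-to-lowest ratios of 1.29 (Kcnq3) to 2.19 (Kcng3). Kcna4 encodes a Kv1 channel that inactivates quickly. Kcna4 measured 57.8, 79.8 and 45.8 CPM in controls against 71.6, 62.9 and 39.3 CPM with overexpression. The mean log2 CPM of the 14 medium spiny neuron markers had this order too, at 8.42, 8.86 and 8.02 in control and 8.82, 8.48 and 7.79 in overexpression.

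The comparison was also fitted with the cortical marker level as a covariate. The standard error of the log2 fold change was then lower for 17 of 23 named members, the same to the second decimal for 4 and higher for 2, Kcng4 (0.72 to 0.90) and Kcnk6 (0.16 to 0.18). The named members include those picked for the largest SD in each class, and the same count over all genes was not made. A covariate with the library order of a gene lowers its error by construction, as for Kcnk9, where it went from 0.54 to 0.08. In that fit 0 members passed the adjusted threshold, and 7 of 67, or 10.4%, had an unadjusted p under 0.05, beside 5.30% of all genes in the same fit. The smallest was that of Kcnc2, a Kv3 gene of fast-spiking neurons, with a log2 fold change of −0.60 (SE 0.15) and adjusted p = 0.551 (edgeR). Kcnc2 measured 74.4, 30.4 and 71.7 CPM in controls against 27.6, 44.7 and 76.9 CPM with overexpression, and its log2 fold change without the covariate was −0.24 (SE 0.51).

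**Figure D4:**
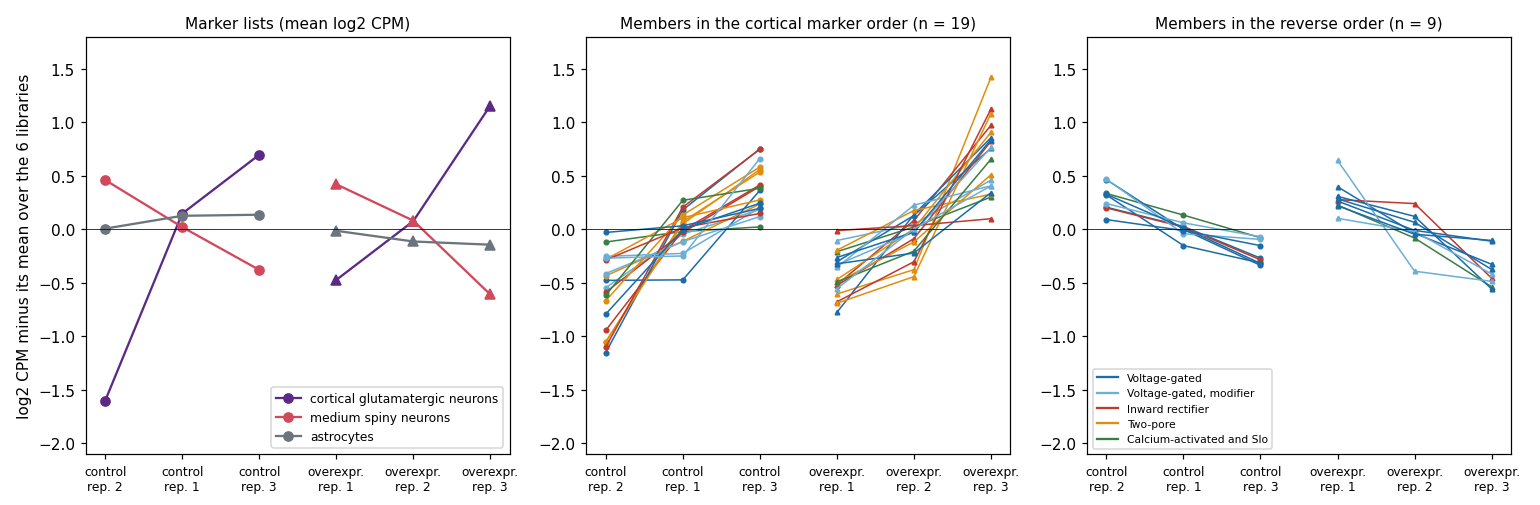
Log2 CPM minus its mean over the 6 libraries (vertical axis), with libraries ordered within each group by cortical marker level. The left panel shows the mean of 3 marker lists, the middle panel the 19 members in the cortical order and the right panel the 9 in the reverse order, with control as circles and overexpression as triangles.

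Promoter sequence was set beside these opposite courses. RefSeq entries on GRCm38.p6, each from 250 bases before to 50 after the start, matched 54 of the 78 members, with 69 entries because some genes have several starts. On either strand, the GC box GGGCGG was present in 52.2% of the 69 entries and in 35.7% of all 32851 promoters, and TATAAA in 4.35% and 13.6%. The cyclic AMP response element TGACGTCA was present in 0 of 69 entries and in 1.79% of all promoters, and its core TGACG, which the whole element contains, in 18.8% and 20.8%. These are matches of letters and not binding sites. Shown are the 250 bases before the start for the 2 genes of each order with the largest ratio between libraries among those with 1 entry and a window outside the annotated span of the gene, 5′ to 3′ on the gene's strand, with GC boxes of either strand in capitals.
Kcnk4, cortical order: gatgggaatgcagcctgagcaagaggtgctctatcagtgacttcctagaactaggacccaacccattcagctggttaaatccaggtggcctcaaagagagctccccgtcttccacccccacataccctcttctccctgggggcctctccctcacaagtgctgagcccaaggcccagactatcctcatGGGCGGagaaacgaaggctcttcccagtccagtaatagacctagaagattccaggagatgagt
Kcnj3, cortical order: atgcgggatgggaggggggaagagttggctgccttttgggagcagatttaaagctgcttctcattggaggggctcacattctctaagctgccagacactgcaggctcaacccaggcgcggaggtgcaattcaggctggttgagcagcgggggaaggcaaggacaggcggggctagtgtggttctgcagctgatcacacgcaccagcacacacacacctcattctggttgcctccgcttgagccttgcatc
Kcng3, reverse order: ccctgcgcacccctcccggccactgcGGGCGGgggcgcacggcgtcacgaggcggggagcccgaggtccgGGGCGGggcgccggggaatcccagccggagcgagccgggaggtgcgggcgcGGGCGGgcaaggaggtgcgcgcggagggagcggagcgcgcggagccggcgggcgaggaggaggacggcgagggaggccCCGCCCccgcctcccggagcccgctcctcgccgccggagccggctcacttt
Kcna4, reverse order: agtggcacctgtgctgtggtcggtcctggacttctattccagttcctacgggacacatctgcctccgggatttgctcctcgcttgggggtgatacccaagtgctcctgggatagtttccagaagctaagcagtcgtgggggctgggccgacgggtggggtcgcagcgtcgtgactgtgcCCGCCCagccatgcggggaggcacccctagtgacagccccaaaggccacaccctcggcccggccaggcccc
The Kcnk4 window is at chr19:6934516-6934765 on the minus strand and that of Kcnj3 at chr2:55435720-55435969 on the plus strand. The Kcng3 window is at chr17:83631896-83632145 (minus) and that of Kcna4 at chr2:107290339-107290588 (plus). In these windows GC boxes numbered 1 in Kcnk4, 0 in Kcnj3, 4 in Kcng3 and 1 in Kcna4, and the G and C content was 54.8%, 58.4%, 82.4% and 65.2%. The whole Kcnj3 entry, with the 50 bases after the start, did hold a GC box and counts as such in the share above.

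Genes that work with these channels but carry other symbols were also read from the same fit. The list of partners also holds Kcnma1, which is itself a potassium channel pore gene and was left out by its symbol alone. Of the 24 partners, 22 were tested and 0 passed, beside 0.00505% of all genes tested. An unadjusted p under 0.05 (edgeR) was reached by 0, beside 3.89%, and 0 had groups that did not overlap, beside 8.93%. Log2 fold changes were above 0 for 13, or 59.1%, beside 50.6% of all genes. With 22 genes, counts of 0 beside such shares say little. Kcnip2, the calcium-binding partner of Kcnd2, had the highest level per length of the partners, 68.4 CPM per kilobase. It measured 219, 282 and 201 CPM in controls against 282, 246 and 198 CPM with overexpression, a log2 fold change of 0.05 (SE 0.17). Kcnab2, a cytoplasmic subunit of Kv1 channels, and Dlg4, a scaffold that clusters them, followed at 53.9 and 51.4 CPM per kilobase, with log2 fold changes of −0.05 (SE 0.12) and −0.08 (SE 0.08).

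The smallest p of the partners was that of Kcnmb1, a subunit of the large-conductance calcium-activated channel known from smooth muscle. It measured 2.60, 1.85 and 0.866 CPM in controls against 0.608, 0.872 and 1.39 CPM with overexpression, with an unadjusted p of 0.0900. Lrrc26, another subunit of that channel, and Abcc9, a sulfonylurea receptor of ATP-sensitive channels, each had an unadjusted p of 0.177, with log2 fold changes of 0.59 (SE 0.40) and 0.19 (SE 0.13). The pore gene Kcnma1 measured 216, 176 and 246 CPM in controls against 198, 210 and 268 CPM with overexpression, and was highest in overexpression replicate 3.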

How the data were processed

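Strand-specific TruSeq libraries were made from Trizol-extracted RNA, per the labels' protocols. The authors deposited raw counts per Ensembl gene for each sample. The submitters' processing notes list Cuffnorm, STAR 2.5.3a, DESeq 1.16.1, FastQC 0.11.5 and the mm10 build without saying what each did. Neither the counting program nor its strand setting is given in the sources used here. Counts are therefore uncertain for the 20 members that share exon bases with a gene on the opposite strand. They include Kcnj3 (1621 shared bases), Kcnk2 (604), Kcnj6 (380), Kcnk1 (179), Kcnj9 (172) and Kcnt2 (102). Symbols and exon lengths came from GENCODE M21, which matched 55154 of 55335 identifiers.

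Groups were compared over all 6 libraries with edgeR 4.0.16 in R 4.3.3: TMM factors, filterByExpr, robust quasi-likelihood F-tests, two-sided, and Benjamini-Hochberg adjustment over 19809 genes. SEs were taken from the fold change and its F value. CPM uses TMM-adjusted totals, and log2 CPM a prior count of 2. Alternatives included DESeq2 1.42.0 and limma-voom (limma 3.58.1). The members and lists were chosen with earlier results of these data known. Named members are, per class, the 3 highest per length, the smallest p and the largest SD of log2 CPM. Some members and sequences that the rule names are not reported here. Named partners are the 3 with the smallest p and the 3 highest per length. Other members, such as Kcnq3, Kcna2, Kcnj3, Kcnc2 and Kcna4, were named after their values were seen. The labels do not say that libraries came from separate animals, so the p-values may reflect technical spread alone. Between replicates of a group the chi-square over its degrees of freedom was 19.1 to 49.6, above the 1 of counting error.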

Additional observations from a re-analysis of the deposited data

How the results depend on the processing

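In all 16 other settings 0 members and 0 partners were called, and the lowest adjusted p of any member was 0.551 (edgeR, cortical covariate). Of 23 tested named members, 12 changed sign in at least 1 setting, and 330 of 365 compared values kept their direction. For each, the cause was not tested, and the same counts over all genes were not made. Some lay near 0 in the main fit, such as Kcnd2 and Kcnt2 at −0.01, where a sign turns easily. All genes called numbered 83 with the DESeq2 Wald test, 6 with limma-voom, 3 with no filter on low counts, 6 with the cortical covariate, 5 without overexpression replicates 1 and 2, and 1 to 2 when 1 library was left out. Members at an unadjusted p under 0.05 numbered 1 with limma-voom (1.49%, beside 3.95% of all genes), 7 with the cortical covariate (10.4% beside 5.30%) and 5 without overexpression replicates 1 and 2 (7.46% beside 7.13%). When 1 library was left out they numbered 0 to 4, the 4 being without overexpression replicate 1 (5.88% beside 5.09%). Members whose groups did not overlap numbered 2 with no filter (2.70%, beside 9.26% of all genes), 0 with at least 1 CPM in all 6 libraries (beside 8.24%) and 2 to 9 when 1 library was left out (2.99% to 13.2%, beside 15.7% to 21.7%). They numbered 45 without overexpression replicates 1 and 2 (67.2% beside 58.9%), where 1 overexpression library remained and was assumed to vary like the controls.

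Replicate numbers gave no clear pairing of the samples: deviations of same-numbered libraries correlated at −0.02, 0.03 and 0.29, and 3 of 6 libraries correlated best with their own number. With a block for the number, the SE fell for many named members, as from 0.68 to 0.33 for Kcnk4. It rose for Kcng4 (0.72 to 0.83), Kcnk6 and Kcnn4. With the replicate number as a block, 3 genes were called over all genes, 0 of them members, and 1 member had an unadjusted p under 0.05, Kcnh1 (1.49% of members, beside 4.56% of all genes).

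With the cortical covariate the median log2 fold change was −0.03 for the calcium-activated and Slo class, −0.12 for inward rectifiers and −0.05 for two-pore genes, each above 0 without it, and these genes changed sign: Kcnd2 to 0.14, Kcnc4 to −0.27, Kcnj4 to 0.05, Kcnj9 to −0.12, Kcnj6 to −0.34, Kcnk9 to −0.08, Kcnk4 to −0.10, Kcne1l to 0.03 and Kcne4 to −0.05. Without overexpression replicates 1 and 2 the class medians were 0.30 for two-pore genes, 0.29 for modifiers and 0.24 for calcium-activated and Slo genes. They were −0.05 for voltage-gated genes, −0.12 for inward rectifiers and −0.15 for Kcne genes. In that setting Kcng4 turned to 0.11, Kcnk2 to −0.20 and Kcnt2 to 0.57. Leaving out 1 library moved the class median from −0.02 to 0.06 for voltage-gated genes, from −0.07 to 0.22 for modifiers, from −0.15 to 0.05 for inward rectifiers, from −0.06 to 0.19 for two-pore genes and from −0.06 to 0.13 for calcium-activated and Slo genes. The ranges for genes that changed sign there were −0.17 to 0.16 for Kcnd2, −0.38 to 0.56 for Kcnc4, −0.08 to 0.09 for Kcnj4, −0.28 to 0.47 for Kcnj9, −0.62 to 0.57 for Kcnj6, −0.21 to 0.66 for Kcnk9, −0.48 to 0.84 for Kcnk4, −0.00 to 0.26 for Kcnk2, −0.42 to 0.21 for Kcnt2, −0.28 to 0.08 for Kcne1l and −0.11 to 0.51 for Kcne4. Counting depth limits genes such as Kcnn4, with 9 to 25 counts a library.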
